A study of Mus musculus with 4 samples.

Results

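The comparison described here is between ST2 cells 3 h after low-intensity pulsed ultrasound (LIPUS) and untreated ST2 cells, and its members are 2 of the 4 arrays in the study, chosen by their labels. ST2 is an immortal, fibroblast-like stromal line from the bone marrow of BALB/c mice. All 4 cultures carried the same genotype and were kept at 37 °C in medium with 10% serum under 5% CO2. The treated culture received ultrasound at 25 mW per square cm for 20 min and was harvested 3 h later; sister cultures were taken at 0.5 h and 1 h. The labels name no mock exposure for the control and give no harvest time for it. Of 18193 genes with a probe set (a group of probes against 1 transcript) of their own, 11574 were measured, meaning that at least 1 of the 2 arrays lay above the median of all values, a log2 signal of 5.23. The other 6619 genes were under that floor on both arrays and are not described.

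LIPUS delivers repeated small pressure pulses and is used to promote bone repair. Marrow stromal cells make the matrix and the growth factors on which bone-forming and blood-forming cells depend. The heat shock response, a general reaction to misfolded protein, raises chaperones of the HSP70 family, the DNAJ proteins that hand clients to them, and small heat shock proteins that hold unfolded chains. Heat shock factor, its regulator, binds inverted repeats of a short block found upstream of these genes.

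The largest differences at 3 h were higher chaperone signals: both inducible HSP70 genes, Dnaja4 and Hsph1 rose by more than 3-fold (log2 ratios of 1.77 to 3.44). Hpgd, which encodes the enzyme that inactivates prostaglandins, the osmolyte transporter gene Slc5a3, Ptx3 and Krtap1-5 completed the 8 genes that rose at least 2-fold, and no gene fell that far. Changes of 1.5 to 2-fold followed in both directions, with 32 higher and 21 lower genes. Among the higher ones were the matrix proteoglycan gene Fmod, the WNT amplifier gene Rspo3 and the clock gene Arntl. The stem cell factor gene Kitl was also higher, but past 1.5-fold on its brightest probe set only. Among the lower ones were Etv5 and Dusp5, which lie downstream of MAP kinase signalling, and the nucleolar gene Nolc1.

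Each group held 1 array, so no gene has a test, p-value or standard error, and precision is limited by how few arrays there are. A gene is said to have risen or fallen where its ratio reached a fixed size of 1.5-fold, a log2 ratio of 0.585. By that rule 40 genes rose, 0.346% of the measured genes, and 21 fell, 0.181%. At least 2-fold higher were 8 genes, 0.0691%. Of all measured genes, 93.8% were within 1.25-fold of control, the median log2 ratio was 0.01, and the SD across genes was 0.179. The spread between cultures was not measured. Between 2 probe sets of one gene on these arrays, the log2 ratio had an SD of 0.138 over 5285 genes, which describes only the error of the probes.

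**Figure D1:**
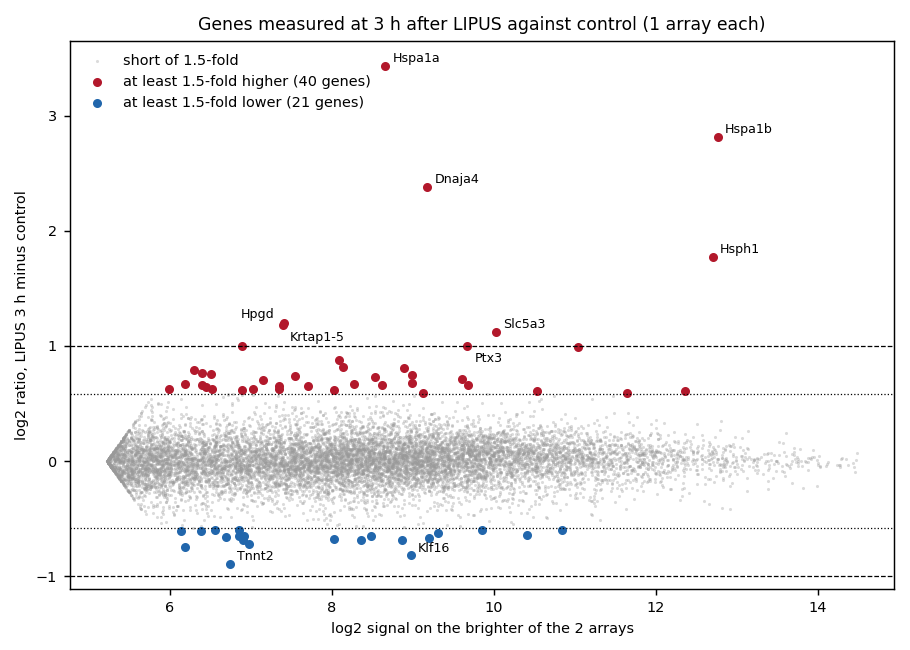
Log2 ratio of the 3 h array to the control array (vertical axis) against the log2 signal on the brighter of the 2 arrays (horizontal axis) for 11574 genes, 1 point each. The 40 red and 21 blue points lie past 1.5-fold (dotted lines), and the 8 genes past 2-fold (dashed lines) are all higher; the fan at the left edge is made by the floor.

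The arrays were alike in scale, with median log2 signals of 5.21 to 5.25. Of 19 stromal markers on the array, 18 were above the floor on each array, and their summed log2 signal was 16.5 to 16.6. Markers of other cell types were few: 4 or 5 of 12 haematopoietic, 2 of 10 endothelial and 2 of 8 epithelial genes lay above the floor, with summed log2 signals of 8.41 to 9.30 and no member past 1.5-fold at 3 h. Bacterial poly-A control transcripts, which are normally added to the RNA before labelling, were brighter at 3 h than in the control on 12 of 12 probe sets, with a median log2 difference of 0.41, while the hybridisation controls differed by 0.02. Probe sets against 18S ribosomal RNA were brighter at 3 h by a median of 1.79. When the arrays were set level on the poly-A controls, an alternative chosen after seeing the data, the median log2 ratio of all genes moved to -0.39, and 9 genes counted as higher and 1390 as lower. Each direction below is relative to the bulk of genes. The part of labelling in these results was not tested.

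Sequences upstream of 6 genes are shown first, because these genes rose at 3 h and hold the paired heat shock motif within 250 bases of an annotated start. The motif was searched as GAANNTTC or TTCNNGAA on both strands and is in capitals. Sequences are from RefSeq on GRCm38.p6, are printed 5′ to 3′ on the strand of the gene, and end at the base before the annotated start, which is position -1. Dnaja4 is shown for its second start and for 120 bases only, and its first start held no pair. Dnaja1 is shown for its first start, and its other starts held no pair. For Hsph1 the pair lay at -54 from another start. They lie at chr17:34972157-34972406 (minus strand) for Hspa1a, chr5:149636337-149636586 (minus strand) for Hsph1, chr9:54699439-54699558 (plus strand) for Dnaja4, chr4:40722218-40722467 (plus strand) for Dnaja1, chr5:135887669-135887918 (plus strand) for Hspb1 and chr8:56294302-56294551 (plus strand) for Hpgd.
Hspa1a: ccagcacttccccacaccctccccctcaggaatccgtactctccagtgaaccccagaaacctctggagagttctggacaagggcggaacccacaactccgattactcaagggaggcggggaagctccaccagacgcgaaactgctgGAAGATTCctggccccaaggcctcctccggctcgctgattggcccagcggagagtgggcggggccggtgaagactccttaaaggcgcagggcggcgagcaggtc
Hsph1: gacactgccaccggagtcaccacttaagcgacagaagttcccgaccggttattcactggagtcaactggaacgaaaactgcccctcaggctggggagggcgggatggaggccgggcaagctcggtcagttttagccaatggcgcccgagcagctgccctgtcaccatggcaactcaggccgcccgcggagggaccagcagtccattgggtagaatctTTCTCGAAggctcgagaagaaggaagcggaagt
Dnaja4: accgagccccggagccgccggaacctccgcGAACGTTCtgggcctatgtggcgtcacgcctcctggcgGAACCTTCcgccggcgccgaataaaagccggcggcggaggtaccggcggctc
Dnaja1: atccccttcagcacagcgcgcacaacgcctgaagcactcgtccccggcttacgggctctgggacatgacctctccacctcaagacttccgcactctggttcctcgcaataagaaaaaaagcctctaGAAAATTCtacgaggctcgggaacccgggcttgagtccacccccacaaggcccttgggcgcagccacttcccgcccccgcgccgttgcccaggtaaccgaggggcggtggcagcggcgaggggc
Hspb1: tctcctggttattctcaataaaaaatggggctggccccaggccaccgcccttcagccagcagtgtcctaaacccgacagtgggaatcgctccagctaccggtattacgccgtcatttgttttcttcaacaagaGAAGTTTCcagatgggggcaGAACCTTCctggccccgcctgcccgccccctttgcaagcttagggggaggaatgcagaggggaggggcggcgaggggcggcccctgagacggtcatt
Hpgd: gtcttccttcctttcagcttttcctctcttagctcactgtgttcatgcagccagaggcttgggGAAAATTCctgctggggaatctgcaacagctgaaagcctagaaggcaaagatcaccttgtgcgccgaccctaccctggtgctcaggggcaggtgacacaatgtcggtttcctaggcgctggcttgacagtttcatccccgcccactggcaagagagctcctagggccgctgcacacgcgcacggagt

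The paired motif began at -104 in Hspa1a, at -33 in Hsph1, at -90 and -52 in Dnaja4, at -124 in Dnaja1, at -117 and -97 in Hspb1, and at -187 in Hpgd. Hspa1b, the near-copy of Hspa1a, differed from it at 3 of 250 bases and held the same motif at -104. Over windows from 250 bases before to 50 after the start, 30 of the 40 higher genes had an entry in the table and 9 of them held the pair, the others being Hspa1b, Fas and Trim23. The pair was in 2 of 19 lower genes with an entry, Etv5 and Slc29a1. Across all 32851 windows it was in 15.1%, and 13.8% of the measured genes with an entry held it. An E-box, CACGTG, was in 2 of 30 higher and 4 of 19 lower genes, beside 11.8% of measured genes. No higher or lower gene held the cAMP element TGACGTCA, beside 3.58% of measured genes. A match is a run of letters and does not show binding.

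Log2 signals are given from here on in the order control, 0.5 h, 1 h and 3 h. HSP70-type chaperones had 11 measured genes at 3 h, of which 3 rose and none fell, with a list median of 0.06 beside 0.01 for all genes. Hspa1a, the stress-inducible HSP70, lay under the floor in the control at 4.46 and reached 10.93, 11.28 and 8.66 on the arrays from 0.5 h to 3 h. Its ratio at 3 h was at least 10.8-fold. The 3 h array lay between the control and the earlier arrays. Hspa1b, which encodes nearly the same protein, lay at 9.95, 13.44, 13.46 and 12.77, 7.05-fold higher at 3 h. Probes may not tell Hspa1a from Hspa1b, so the values of this pair are not separate measurements with certainty.

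Hsph1 encodes HSP110, which recharges HSP70 with nucleotide. It lay at 10.93, 11.98, 12.30 and 12.70, highest on the last array and 3.42-fold above control. Hspa4l, a relative of Hsph1, had a log2 ratio of 0.51, short of the rule. Hspa8, the constitutive HSP70, had 0.10, and the mitochondrial Hspa9 had -0.04.

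Of 23 measured DNAJ genes, 2 rose at 3 h, and the list median was 0.04. Dnaja4 rose on every treated array, from a log2 signal of 6.79 in the control to 8.56, 8.92 and 9.18, and was 5.22-fold higher at 3 h. Dnaja1, a general HSP70 partner with a far brighter signal, lay at 11.75, 12.02, 12.21 and 12.36 on its brightest probe set. There it first passed the rule at 3 h, at 1.53-fold. Its other 2 probe sets gave log2 ratios of 1.09 and 0.94 at 3 h, larger than the 0.61 of the brightest. The first lay at 9.70, 10.34, 10.66 and 10.80, past 1.5-fold from 0.5 h on. The other lay at 9.23, 9.80, 9.98 and 10.17, past 1.5-fold from 1 h on. The late crossing of Dnaja1 thus rests on 1 probe set. Dnajb1, another heat-inducible partner of HSP70, lay at 10.44, 12.90, 13.14 and 10.71 on its brightest probe set, within 1.25-fold of control at 3 h. Its other probe set lay at 10.31, 11.99, 12.02 and 11.09, a log2 ratio of 0.78 that was past 1.5-fold, so the probe sets of Dnajb1 disagree on whether it was still raised. Dnaja4 also differed between probe sets in its course: of the other 2, one lay at 5.83, 8.22, 8.86 and 8.25, highest at 1 h, and the other at 5.98, 7.37, 7.65 and 7.98, highest at 3 h.

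Small heat shock proteins and BAG co-chaperones had 12 measured genes, of which 2 rose at 3 h, with a list median of 0.09. Cryab, alpha-B crystallin, lay at 10.05, 10.82, 11.00 and 11.04, and its ratio of 1.99-fold at 3 h was just short of 2-fold. Its other measured probe set lay at 9.46, 10.19, 9.97 and 10.06, highest at 0.5 h and 1.51-fold higher at 3 h. Hspb1, known as HSP25 in mice, lay at 7.32, 7.91, 7.80 and 8.14, 1.76-fold higher at 3 h. Its other probe set lay at 5.85, 7.01, 7.01 and 7.12, past 2-fold on every treated array, with a log2 ratio of 1.27 at 3 h. Bag3, which links small heat shock proteins to HSP70, had log2 ratios of 1.12 at 0.5 h, 1.30 at 1 h and 0.54 at 3 h, so it was short of the rule by then. HSP90, its co-chaperones and the chaperonin had 20 measured genes and 1 that rose, Ahsa2, a relative of the gene for an HSP90 activator. Ahsa2 lay at 8.89, 9.11, 9.27 and 9.61. The inducible HSP90 gene Hsp90aa1 had a ratio of 0.16, and none of 20 chaperones of the endoplasmic reticulum reached 1.5-fold.

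The time course split the 40 higher genes into 7 that were past 1.5-fold at every time, 16 at 1 h and 3 h, 1 at 0.5 h and 3 h, and 16 at 3 h alone. The classes go by the brightest probe set of each gene. The 1 at 0.5 h and 3 h was Hspb1, whose other probe set was past 1.5-fold at every time. The 3 comparisons share the control array, so a low control signal raises all of them, and these classes are a description. At the earlier times 43 genes (0.372%) and 109 genes (0.948%) were higher. The control array was the lowest of the 4 for 39 of the 40 genes, and the 3 h array was the highest for 28. The 7 at every time were Hspa1a, Hspa1b, Dnaja4, Hsph1, Krtap1-5, Cryab and Txnip. The other measured probe set of Cryab was short of 1.5-fold at 1 h. Krtap1-5, a hair keratin-associated protein gene, lay at 6.21, 7.12, 7.49 and 7.39. Txnip, which encodes an inhibitor of thioredoxin and of glucose uptake, lay at 8.53, 9.14, 9.16 and 9.12, just inside the rule at 3 h with a log2 ratio of 0.59, but its other probe set, at 7.61, 7.77, 7.58 and 7.75, was short of the rule at every time.

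**Figure D2:**
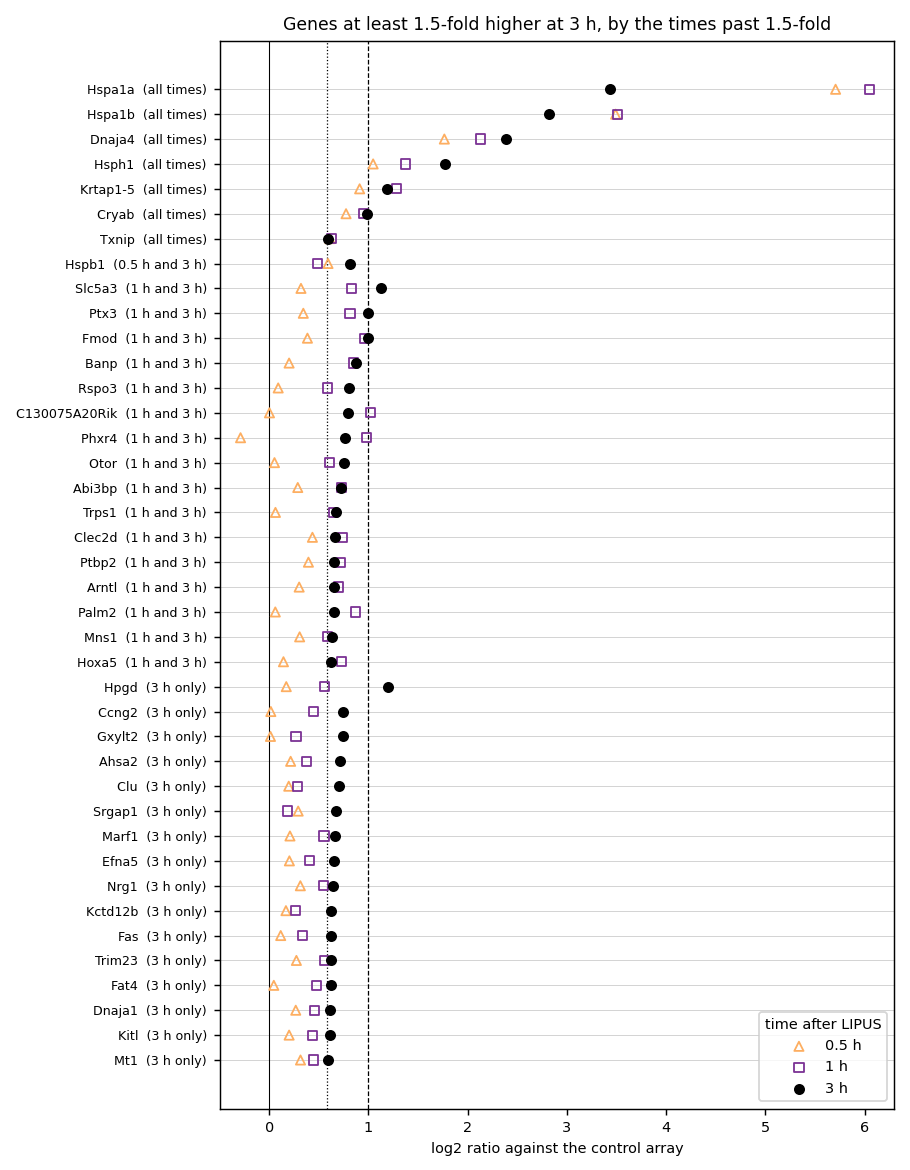
Log2 ratio to the control array (horizontal axis) at 0.5 h (triangles), 1 h (squares) and 3 h (filled circles) for the 40 genes at least 1.5-fold higher at 3 h, grouped by the times past 1.5-fold; dotted and dashed lines mark 1.5-fold and 2-fold. Hspa1a and Hspa1b were lower at 3 h than at 1 h by more than 1.5-fold, and Hpgd was the gene that moved further by that much.

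Slc5a3, Ptx3 and Fmod were the largest of the 16 that rose at 1 h and stayed higher. Slc5a3, the sodium-coupled transporter of the osmolyte myo-inositol, lay at 8.90, 9.22, 9.73 and 10.02, 2.18-fold higher at 3 h, and its other measured probe set gave a log2 ratio of 0.53. Ptx3, a secreted pentraxin of innate defence, lay at 8.67, 9.02, 9.49 and 9.67, and its ratio of 1.00 was just inside 2-fold. Both genes were higher on each successive array. Fmod, fibromodulin, which binds collagen fibrils, lay at 5.89, 6.28, 6.85 and 6.89, a ratio of 1.00 that was just short of 2-fold, and its other 4 measured probe sets gave 0.45, 0.63, 0.75 and, as a lower bound, 0.40.

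Rspo3, whose product strengthens WNT signals, had log2 signals of 8.08, 8.17, 8.67 and 8.89. Among 21 measured WNT genes it was the one that rose, and the list median was 0.08. Trps1, a GATA-type repressor active in cartilage, lay at 8.31, 8.38, 8.96 and 8.99, and its other 3 probe sets gave 0.39 to 0.52. Abi3bp, a matrix protein gene, lay at 7.80, 8.09, 8.53 and 8.53, and its other probe set gave 0.54, short of the rule. Both reached their 3 h level by 1 h. The rest of this class were Banp, Otor, Clec2d, Ptbp2, Arntl, Palm2, Mns1, Hoxa5, Phxr4 and C130075A20Rik, with log2 ratios of 0.62 to 0.88 at 3 h. For Hoxa5, a positional homeobox gene, the other probe set gave -0.02, so its rise rests on 1 probe set. The other probe set of Palm2 gave 0.35, short of the rule.

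Late rises, short of 1.5-fold at both earlier times, were seen in 16 genes. Hpgd was the largest, at 6.21, 6.38, 6.77 and 7.41, 2.29-fold above control. Its 3 h signal was 1.55-fold above the nearest other array, and it was the 1 gene (0.00856% of 11685) that stood 1.5-fold above every other array at 3 h. The same count was 8 (0.0685%) for the 1 h array, 4 (0.0342%) for the 0.5 h array and 1 for the control array. The probe set of Hpgd has an ID that marks possible matches to other transcripts, and its other probe set was under the floor. Ptgs2, which makes the prostaglandins that Hpgd inactivates, lay at 8.99, 10.18, 9.72 and 8.78, lowest on the 3 h array. Of 11 measured prostaglandin genes, Hpgd was the one past the rule.

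Another 4 late genes were within 1.25-fold of control at both earlier times on their brightest probe sets: Clu, Gxylt2, Srgap1 and Kctd12b. Clu, clusterin, a secreted chaperone, lay at 6.44, 6.64, 6.72 and 7.15, and its other 3 probe sets gave 0.89 and, as lower bounds, 0.13 and 0.27. The probe set with 0.89 lay at 5.35, 5.59, 5.91 and 6.24, already past 1.25-fold at 1 h. Gxylt2, a glycosyltransferase acting on Notch-type repeats, lay at 6.81, 6.82, 7.08 and 7.55. Srgap1 went from 5.52 to 6.19, close to the floor, as did Kctd12b, from 5.36 to 5.99.

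Several signalling genes were in the late class. Kitl, stem cell factor, a ligand that blood stem cells need from stroma, lay at 9.93, 10.13, 10.37 and 10.54, 1.53-fold higher at 3 h. Its other 3 probe sets gave 0.07 to 0.47, so its rise past the rule rests on 1 probe set. Fas, the death receptor gene, lay at 6.40, 6.52, 6.74 and 7.03. Nrg1, which encodes a ligand of ERBB receptors, and Efna5, which encodes an ephrin, had log2 ratios of 0.65 and 0.66. All 4 were highest on the 3 h array.

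Ccng2, a cyclin linked to growth arrest, lay at 8.25, 8.26, 8.70 and 8.99, 1.67-fold higher at 3 h, and its other probe set gave a log2 ratio of 0.32, short of the rule. Mt1, a metal-binding metallothionein, lay at 11.05, 11.37, 11.50 and 11.65, just inside the rule, and its other probe set, dim in the control, gave a lower bound of 0.09. Marf1, Trim23, Fat4, Ahsa2 and Dnaja1 complete the class, each with some difference already at 1 h (log2 ratios of 0.38 to 0.56). The word late thus describes when the brightest probe set of a gene crossed 1.5-fold, not when the gene first moved. Other measured probe sets gave 0.29 for Trim23 and 0.42 for Fat4 at 3 h, both short of the rule. For Marf1 they gave 0.33 and, as a lower bound, 0.18. For Dnaja1 they had crossed 1.5-fold by 1 h.

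Lower genes were fewer and smaller in change, with 21 past 1.5-fold and a largest fall of 0.89 on the log2 scale. At 3 h alone 14 crossed the rule, 6 had also done so at 1 h, and 1, Ggcx, at every time. At the earlier times 12 genes (0.104%) and 38 genes (0.331%) were lower. Tnnt2, cardiac troponin T, lay at 6.75, 6.88, 6.31 and 5.86, 1.85-fold lower at 3 h, and a further probe set gave -0.93. Klf16, a zinc finger transcription factor, lay at 8.98, 8.76, 8.50 and 8.16, lower on each successive array and 1.76-fold lower at 3 h. Ggcx, the vitamin K-dependent carboxylase that modifies bone matrix proteins such as osteocalcin, lay at 6.98, 6.29, 6.02 and 6.26.

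**Figure D3:**
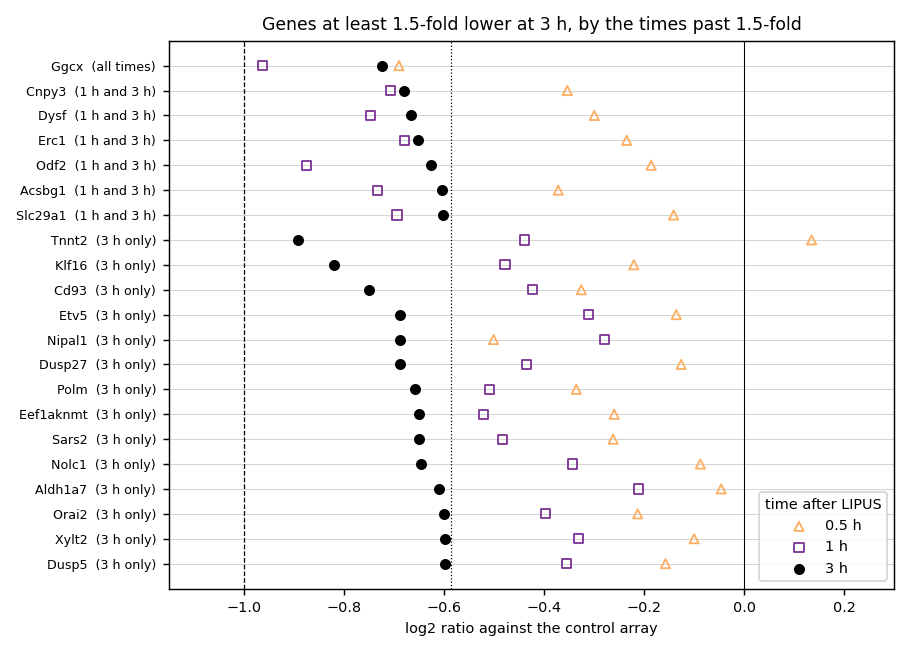
Log2 ratio to the control array (horizontal axis) at 0.5 h (triangles), 1 h (squares) and 3 h (filled circles) for the 21 genes at least 1.5-fold lower at 3 h, grouped by the times past 1.5-fold; dotted and dashed lines mark 1.5-fold and 2-fold lower. For 14 of the 21 the 3 h array was the lowest of the 4, and for 7 the 1 h array was.

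Etv5 and Dusp5, which respond to MAP kinase signalling, were among the late falls. Etv5, an ETS factor induced by ERK, lay at 8.36, 8.22, 8.05 and 7.67, 1.61-fold lower, and its other 2 probe sets fell by 0.89 and 1.12. Dusp5, a nuclear phosphatase of ERK, lay at 9.85, 9.69, 9.49 and 9.25, 1.51-fold lower. Both were lower on each successive array. Among 15 measured feedback genes of the pathway Dusp5 was the 1 past the rule, Dusp1 had 0.39, Dusp6 0.30 and Spry2 0.20, and the list median was 0.00. Other genes that respond to ERK had ratios of either sign, such as Etv4 at -0.42, Fosl1 at -0.39 and Ier3 at 0.22.

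Nolc1, a nucleolar assembly factor, lay at 10.41, 10.32, 10.06 and 9.76, and its other 2 probe sets gave -0.45 and -0.64. It was the 1 of 25 ribosome biogenesis genes past the rule, but 20 of the 25 were below 0 and the list median was -0.13, beside 0.01 for all genes. Nop56, a core box C/D protein, had -0.47. Sars2 (mitochondrial seryl-tRNA synthetase) and Eef1aknmt (a methyltransferase of elongation factor 1A) both fell by 0.65. The other measured probe set of Eef1aknmt gave -0.45, short of the rule. Cd93, a lectin-like receptor, fell by 0.75, and 1 other probe set, under the floor at 3 h, gave -0.22 as a bound on its fall.

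Nipal1, Dusp27, Polm, Aldh1a7, Orai2 and Xylt2 completed the late falls, with log2 ratios of -0.69 to -0.60. The other probe sets of Nipal1 and Dusp27 gave -0.39 and -0.21, short of the rule. Orai2, a subunit of calcium entry channels, had another probe set at 0.02, so its fall rests on 1 probe set. Lower from 1 h on were Cnpy3, Dysf, Erc1, Odf2, Acsbg1 and Slc29a1, and all 6 were lowest at 1 h on their brightest probe sets. The other measured probe sets of Erc1 gave -0.06 and -0.18, so its fall past the rule rests on 1 probe set. Slc29a1, a nucleoside transporter, lay at 10.84, 10.70, 10.14 and 10.24. For Odf2, a centriole component, 2 further probe sets gave -0.81 and -0.67 and the other gave 0.18.

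Repeat measurement within the arrays was possible for 20 of the 40 higher genes, through 33 other measured probe sets. Of these, 32 had the same sign and 12 were past 1.5-fold, with a median log2 ratio of 0.47. For 10 of the 21 lower genes there were 15 other probe sets, of which 13 had the same sign and 6 were past 1.5-fold, with a median of -0.45. A few of these ratios are bounds, because the dimmer array lay under the floor. The genes were chosen on the ratio of the brightest probe set, and the ratios of the other probe sets took no part in that choice. All probe sets were read on the same 2 arrays, so their agreement does not repeat the cultures. The same shares over all measured genes were not worked out.

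**Figure D4:**
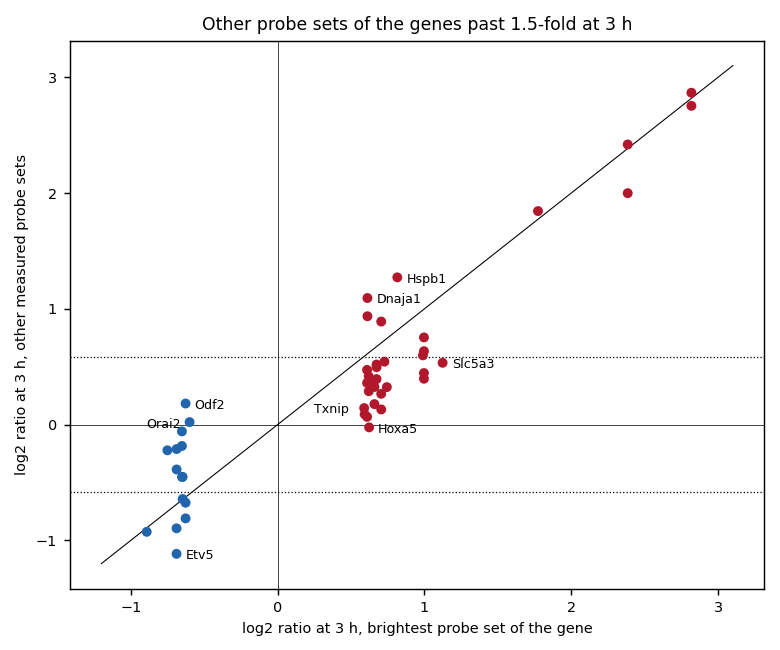
Log2 ratio at 3 h of each other measured probe set (vertical axis) against that of the brightest probe set of the same gene (horizontal axis) for genes at least 1.5-fold higher (red) or lower (blue); the diagonal marks equality and dotted lines 1.5-fold. Hspb1 and Dnaja1 have points above the diagonal, while Hoxa5, Odf2 and Orai2 each have a point on the other side of 0.

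Early responders at 3 h ranged from still raised to below control. Of 26 genes at least 2-fold higher at 0.5 h or 1 h, 5 were still past 2-fold at 3 h (Hspa1a, Hspa1b, Dnaja4, Hsph1 and Krtap1-5), 1 was at 1.5 to 2-fold, 8 at 1.25 to 1.5-fold (among them Fos, whose value is a lower bound and which may lie higher), 11 within 1.25-fold, and 1 was lower. Egr1, a serum-response transcription factor, lay at 8.68, 11.83, 10.83 and 8.84. Atf3, a stress-induced repressor, lay at 6.45, 8.31, 8.71 and 6.03, below the control at 3 h with a log2 ratio of -0.42. Of 31 measured immediate-early factors, all except Fos had ratios short of 1.5-fold at 3 h, and the list median was -0.01. For Fos, whose control signal was under the floor, the ratio is only bounded, at least 1.38-fold. Nr4a1, an orphan nuclear receptor of that list, had -0.52.

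Some other matrix genes, chosen after their values were seen, had ratios above 0 that were short of the rule. Ogn and Postn, which encode the matrix proteins osteoglycin and periostin, had log2 ratios of 0.58 each, the related Omd 0.50, the collagen gene Col8a2 0.57 and the aggrecanase gene Adamts5 0.57. The whole list of 23 measured proteoglycan and matrix genes had a median of 0.02, with 1 past the rule and 10 below 0, among them Bgn, biglycan, a relative of Fmod, at -0.08. Stromal niche factors had a median of 0.19 over 11 measured genes. Kitl was past the rule on its brightest probe set, Angpt1 had 0.46 and Csf1, the macrophage growth factor gene, had -0.33.

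Clock genes had ratios of both signs. Arntl, which encodes the activator BMAL1, lay at 6.69, 6.99, 7.39 and 7.35, 1.58-fold higher at 3 h. Dbp, Ciart, Cry2 and Nr1d1, which BMAL1 and its partner are known to switch on, had -0.47, -0.41, -0.41 and -0.33, all short of the rule. All 4 were lowest at 1 h, and theirs were the lowest 3 h ratios of the clock list. In the same list Per1, Per2 and Bhlhe40 had -0.26, -0.20 and -0.05, and Per3 had 0.19. Of 19 measured clock genes 12 were below 0, and the median was -0.17.

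**Figure D5:**
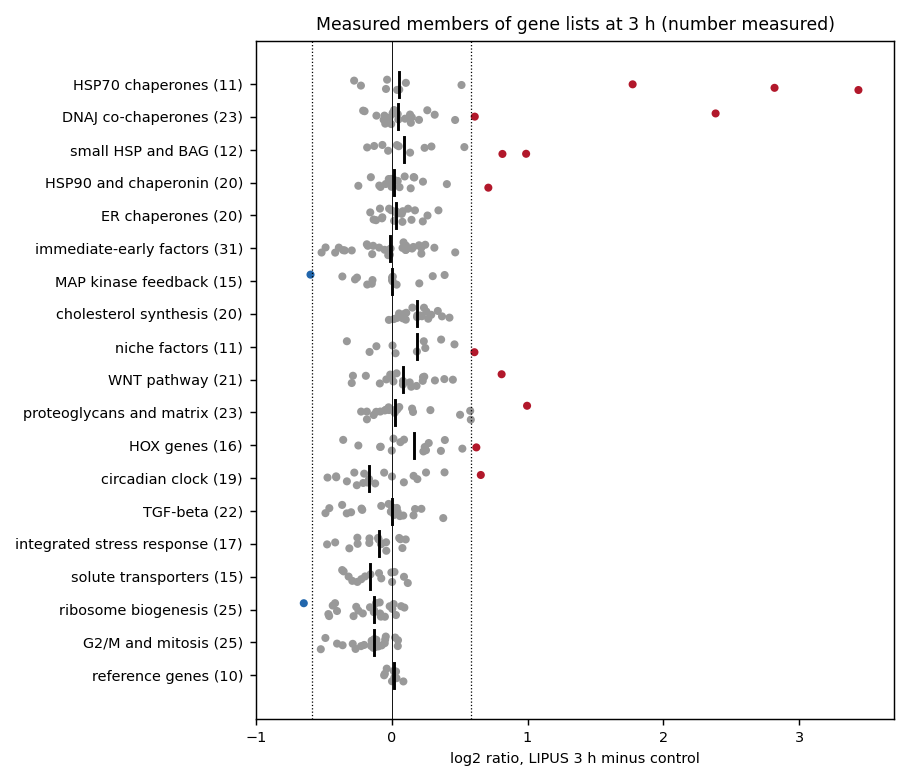
Log2 ratio at 3 h (horizontal axis) of each measured member of 19 of the 51 gene lists, with the list median as a black bar and the number measured in brackets. Red and blue points lie past 1.5-fold (dotted lines). Among the lists drawn, the long tail to the right is in the chaperone lists, where most members are near 0. The lists that hold Hpgd, Krtap1-5, Slc5a3 and Ptx3, each past 2-fold, are not drawn. With the arrays set level on the poly-A controls every list median is below 0.

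Broad small shifts were seen in other lists, none of them with a member past the rule. Cholesterol synthesis had 19 of 20 genes above 0 with a median of 0.19, the highest being Hsd17b7 at 0.43 and Tm7sf2 at 0.37, and the medians at 0.5 h and 1 h were 0.17 and 0.30. Genes of G2 and mitosis had 22 of 25 below 0 with a median of -0.13, the lowest being the checkpoint kinase gene Bub1b at -0.52 and Plk1, a mitotic kinase gene, at -0.49. The integrated stress response had 13 of 17 below 0 with a median of -0.10, including Trib3 at -0.47. Of all measured genes, 52.2% were above 0. With the arrays set level on the poly-A controls, the medians of all 51 lists, cholesterol synthesis included, were below 0.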

How the data were processed

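Gene expression was measured on Affymetrix Mouse Genome 430 2.0 arrays, 1 per group. Per the labels' protocols, RNA with an integrity number above the submitters' limit was labelled from 500 ng with a 3' kit, so signals reflect the 3' ends of transcripts. The authors deposited 1 log2 value per probe set and array; their range gave the log base, and how probes were summarised and scaled is not given in these sources. A method that compresses ratios would carry over into every fold.

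Probe sets with 1 gene symbol were used, 34958 of 45101, and the brightest stood for each gene. The floor was the median over all arrays (log2 5.23), and dimmer values were set to it. Ratios are the 3 h array minus the control array, and a ratio whose dimmer array is at or under the floor is a lower bound. Nothing was tested for significance; the size rule was tested on simulated data.

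The members, the 51 gene lists and the rule for named genes were chosen with earlier results of these data known. The rule named every gene past 2-fold, the 15 highest and 15 lowest past 1.5-fold above the floor, up to 5 past 1.5-fold with a dimmer array under it, list members past 1.5-fold, genes 1.5-fold beyond each other array, and a panel of 47 genes. Other genes named were chosen after their values were seen.

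Alternatives were the floor, scaling, probe set, reference array, probe set class and size threshold. Python 3.11.15, numpy 2.4.6, pandas 2.3.3, matplotlib 3.10.9, R 4.3.3 and limma 3.58.1 were used. Promoter sequences came from RefSeq.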

Additional observations from a re-analysis of the deposited data

Results flagged for a closer look

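Probe sets without a single gene symbol hold signal that the gene counts leave out. Of 2649 such probe sets measured at 3 h, 16 were at least 1.5-fold higher (0.604%) and 7 lower (0.264%), and none reached 2-fold. Their genes are not named here.

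The poly-A control transcripts, which carry no information on the cells, were brighter on the 3 h array than on the control array by a median log2 difference of 0.41, and by 0.28 on the 1 h array and -0.05 on the 0.5 h array. The 5' minus 3' difference was lower at 3 h than in the control for all 4 transcripts with such probe sets, by 0.09 for Actb, 0.14 for Tfrc, 0.16 for Gapdh and 0.22 for Pcx. The part of either in the gene ratios was not tested.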

How the results depend on the processing

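No paired analysis was possible because each group held 1 array, and no replicate could be left out. Median centring, quantile normalization, cyclic loess and requiring both arrays above the floor kept every count of genes within 1.5 times. Other choices moved the counts past 1.5-fold, 40 higher and 21 lower: to 61 and 38 with the floor at the 25th percentile, 18 and 9 at the 75th, 69 and 51 with no floor, 26 and 13 with the probe set of smallest ratio, 82 and 58 at a threshold of 1.4-fold, and 13 and 2 at a stricter log2 ratio of 0.81. Against the mean of the other 3 arrays 7 were higher (Ccng2, Dnaja4, Gxylt2, Hpgd, Hsph1, Ptx3 and Slc5a3) and 15 lower, of which 2 (Klf16 and Tnnt2) are among the 21; the others include Fos, Egr1, Atf3 and Arc, which peaked at 0.5 h or 1 h. With arrays set level on the poly-A controls, added after seeing the data, 9 were higher and 1390 lower.

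Genes at least 2-fold higher numbered 5 with the floor at the 75th percentile, 1 against the mean of the other arrays and 4 on the poly-A scale; at least 2-fold lower they numbered 1 at the 25th percentile, 1 with no floor, 6 against that mean and 21 on the poly-A scale. Late rises and falls, 16 and 14, became 34 and 24 at the 25th percentile, 6 and 5 at the 75th, 40 and 34 with no floor, 9 and 8 with the smallest ratio, and 3 and 1007 on the poly-A scale, all added after seeing the data. Genes 1.5-fold above every other array at 3 h numbered 2 at the 25th percentile, 0 at the 75th and 2 with no floor. They numbered 0 without probe sets whose IDs end in _s_at, _x_at or _a_at, and 0 on the poly-A scale. Genes below every other array numbered 2 at the 25th percentile, 4 with no floor and 24 on the poly-A scale. The log2 ratio turned for Odf2 (0.18) and Hoxa5 (-0.024) with the smallest ratio, and for Hspa1a (-0.23) against the mean of the other arrays, which includes its peak; otherwise the cause was not tested. Over 12 settings, Dnaja4, Ptx3 and Klf16 were past 1.5-fold in all. Signal near the floor limits Srgap1 and Kctd12b, but not these alone. Others near it include C130075A20Rik, Phxr4, Efna5, Otor and Nrg1, with control log2 signals of 5.51 to 5.81. Cd93 and Acsbg1 lay at 5.44 and 5.53 at 3 h. With the floor at the 75th percentile, 18 of the 40 higher and 9 of the 21 lower genes stayed past 1.5-fold.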

Other observations

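Genes that stood at least 1.25-fold beyond every other array at 3 h numbered 21 higher and 23 lower, beside 24 and 47 for the control array, 18 and 25 for 0.5 h, and 63 and 32 for 1 h. Besides Hpgd, Clu and Gxylt2, those higher at 3 h included Il1rn, which encodes the interleukin 1 receptor antagonist, at log2 signals of 9.34, 9.38, 9.43 and 9.85 from the control to 3 h, and Adamts1, a matrix protease gene, 1.26-fold above the nearest array. Those lower at 3 h included Cth, which encodes an enzyme of cysteine synthesis, at 8.17, 8.37, 8.27 and 7.83, and Srsf5, a splicing factor gene, 1.42-fold below the nearest array. These genes were chosen after their values were seen.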
